A study of Homo sapiens with 72 samples.

Results

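The transcripts described here encode P-TEFb, its 7SK inhibitors and members of the super elongation complex: CDK9, CCNT1, CCNT2, HEXIM1, HEXIM2, LARP7, MEPCE, AFF4 and ELL2. They were chosen by name, as 9 of the 60371 genes in the deposited files, and all 9 passed the filter on low counts in every comparison described. Population RNA-seq was made from 72 wells of U2OS, a human osteosarcoma line, after 12 h of treatment. Of these, 18 wells received DMSO alone, and 54 were each treated with 1 of 6 compounds, dosed at 100, 1000 or 10000 nM in 3 wells apiece. These were triptolide, which binds the ERCC3 subunit of the general transcription factor TFIIH, homoharringtonine, which blocks peptide bond formation on ribosomes, the JNK inhibitor pyrazolanthrone, the ABL kinase inhibitor nilotinib, the alpha-glucosidase inhibitor miglitol and the AKT inhibitor MK-2206. By their labels the groups differed only in compound and dose, and the labels used here name no plate or batch. Every comparison with DMSO shared the same 18 DMSO wells, so those comparisons are not independent of each other. The labels do not say that wells came from separate cultures, so p-values measure the spread between wells, which may be technical.

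P-TEFb is the kinase CDK9 bound to a cyclin T, and it releases RNA polymerase II that has paused just downstream of promoters by phosphorylating the polymerase, DSIF and NELF. Much of the cell's P-TEFb is held inactive on the noncoding 7SK RNA, where HEXIM1 or HEXIM2 inhibits the kinase, MEPCE caps the RNA and LARP7 binds its 3′ end. The super elongation complex, built on an AFF scaffold such as AFF4 and carrying an ELL protein such as ELL2, brings active P-TEFb to genes that need rapid elongation.

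On GRCh38 (GENCODE release 44), CDK9 lies on chr9:127785679-127790792 (+), CCNT1 on chr12:48688458-48716998 (-) and CCNT2 on chr2:134918235-134959342 (+). HEXIM1 (chr17:45148475-45152099, +), whose annotated canonical transcript has 1 exon, and HEXIM2 (chr17:45160700-45170040, +) are neighbours with 8601 bases between them, and the antisense lncRNA gene HEXIM2-AS1 overlaps both. LARP7 lies on chr4:112637077-112657696 (+), MEPCE on chr7:100428322-100434126 (+), AFF4 on chr5:132875395-132963634 (-) and ELL2 on chr5:95885098-95961851 (-). On the opposite strand CCNT2 also overlaps CCNT2-AS1, MEPCE ZCWPW1, LARP7 MIR302CHG and its miRNAs, HEXIM2 a further lncRNA gene, and AFF4 the pseudogenes EEF1A1P50 and ATP6V0E1P1 and a Y RNA gene. On the same strand, where strand cannot separate reads, MEPCE overlaps the protein-coding ENSG00000289690 and CDK9 the miRNA genes MIR3960 and MIR2861. The library kit marks strand, but the strand setting of the authors' counting is not given in the sources used here, so reads from these overlaps may not have been told apart.

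The upstream bases of 4 members are shown: HEXIM1 and LARP7, which moved in opposite directions with 100 nM triptolide under TMM scaling, and CCNT1 and CCNT2, which had large differences between triptolide and homoharringtonine. Sequences came from RefSeq (GRCh38.p14), which gave 13 windows of 250 bases upstream of annotated starts for 8 of the 9 members. These starts differ from some GENCODE gene starts given above. Against the GENCODE positions the CCNT1 and CCNT2 windows printed here lie inside the gene, and the LARP7 window spans the gene start. Capitals mark matches, on either strand, to the GC box GGGCGG, the TATA box TATAAA, the cAMP response element TGACGTCA, the AP-1 site TGACTCA and the E-box CACGTG, and none of the marked matches overlap.
HEXIM1, chr17:45148225-45148474 (+): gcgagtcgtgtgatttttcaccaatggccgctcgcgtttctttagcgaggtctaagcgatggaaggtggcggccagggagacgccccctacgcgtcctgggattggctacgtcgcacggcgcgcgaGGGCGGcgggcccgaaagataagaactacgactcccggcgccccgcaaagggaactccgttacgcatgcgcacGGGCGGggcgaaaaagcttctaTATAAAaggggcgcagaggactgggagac
CCNT1, chr12:48716708-48716957 (-): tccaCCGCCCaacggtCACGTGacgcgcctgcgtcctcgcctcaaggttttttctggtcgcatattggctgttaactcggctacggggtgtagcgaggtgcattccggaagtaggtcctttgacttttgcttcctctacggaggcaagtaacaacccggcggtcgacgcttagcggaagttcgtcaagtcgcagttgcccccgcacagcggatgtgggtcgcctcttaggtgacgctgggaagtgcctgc
CCNT2, chr2:134918572-134918821 (+): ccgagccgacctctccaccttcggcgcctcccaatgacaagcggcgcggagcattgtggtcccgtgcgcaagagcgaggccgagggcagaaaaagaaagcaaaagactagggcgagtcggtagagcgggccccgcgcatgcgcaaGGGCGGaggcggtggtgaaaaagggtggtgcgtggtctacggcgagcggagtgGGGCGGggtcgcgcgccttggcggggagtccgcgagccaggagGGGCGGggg
LARP7, chr4:112636893-112637142 (+): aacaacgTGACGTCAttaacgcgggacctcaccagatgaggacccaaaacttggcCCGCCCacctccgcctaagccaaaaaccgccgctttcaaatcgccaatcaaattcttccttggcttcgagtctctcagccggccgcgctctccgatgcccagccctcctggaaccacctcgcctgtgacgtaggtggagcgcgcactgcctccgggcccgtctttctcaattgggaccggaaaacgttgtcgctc
The HEXIM1 window held 2 GC boxes and, close to the start of the gene, the single TATAAA found in the 13 windows; TATAAA occurred in 10.7% of the 35116 windows of this length. The CCNT2 window held 3 GC boxes, the CCNT1 window 1 GC box and 1 E-box, and the LARP7 window 1 cAMP response element and 1 GC box. CCNT1 and LARP7 have 2 windows each, of which the one nearest the annotated gene start is printed; the other held none of these motifs for CCNT1 and 1 GC box for LARP7. Of all windows, 42.6% held a GC box, 6.34% an E-box, 1.65% a cAMP response element and 4.20% an AP-1 site. Such matches describe the letters of the windows and do not show binding.

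Expected counts summed to between 0.0708 and 68.3 mil per well with a median of 38.4 mil, and 3 libraries held under 10 mil: replicate 2 of 100 nM triptolide with 70767, DMSO replicate 10 with 460014 and replicate 1 of 1000 nM triptolide with 9628355. The mesenchymal markers VIM, SPARC, COL1A1 and FN1 averaged between 381 and 2144 TPM in DMSO wells and RUNX2 3.91 TPM ± 0.684 (SD, n = 18), while COL1A2 of the same list was near 0 at 0.0889 TPM. Of late osteoblast markers ALPL averaged 4.08 TPM ± 1.71 (SD, n = 18), and BGLAP, SP7 and IBSP at most 0.461 TPM. Of markers of other cell types the epithelial KRT8 averaged 259 TPM ± 34.7 and EPCAM 2.35 TPM ± 0.839 (SD, n = 18), and CDH1, PTPRC, CD3E, PECAM1, ALB and SOX10 at most 0.442 TPM. Levels across conditions are given as normalized CPM, in which TMM factors over all 72 wells scale the library sizes. Levels between genes are given as TPM, which allows for transcript length. A member passed where the edgeR quasi-likelihood test gave an adjusted p-value (padj) under 0.05 over all genes tested. TMM scaling sets the bulk of genes to no change, so fewer cells in a well and less RNA per cell cannot be told apart in these bulk samples.

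In the 17 DMSO wells with over 10 mil counts, MEPCE was the most abundant transcript with 73.6 TPM ± 6.74 (SD, n = 17), and its lowest well, 61.2 TPM, exceeded the highest well of every other member. AFF4 (46.5 TPM ± 4.91), CDK9 (46.2 TPM ± 2.98) and HEXIM1 (46.0 TPM ± 4.33) followed and did not differ beyond their spread. LARP7 came next with 19.1 TPM ± 4.25. CCNT1 averaged 10.6 TPM ± 3.20, HEXIM2 8.38 TPM ± 1.48, ELL2 8.32 TPM ± 2.03 and CCNT2 7.64 TPM ± 2.27, and these 4 overlapped. HEXIM1 was thus several times more abundant than its neighbour HEXIM2, with a median ratio of 5.52 over the 18 DMSO wells. CDK9 was the steadiest member, its highest of these 17 wells being 1.21 times its lowest in normalized CPM, and CCNT1 the most variable at 2.76 times.

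**Figure D1:**
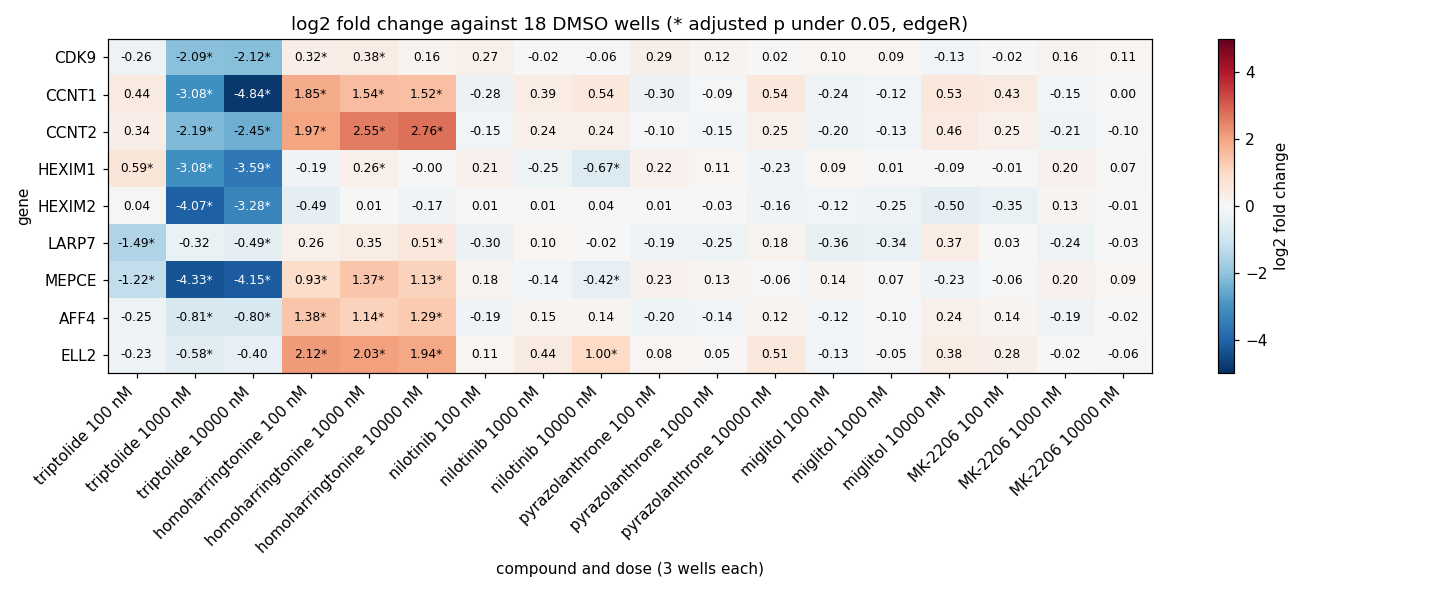
Log2 fold change of the 9 transcripts (rows) against 18 DMSO wells for each compound and dose (columns, 3 wells each), from edgeR; an asterisk marks an adjusted p-value under 0.05. Most members are blue (lower) with 1000 and 10000 nM triptolide, most are red (higher) with homoharringtonine, and 3 pass with 10000 nM nilotinib.

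With 1000 nM triptolide, 8 of the 9 members fell, where 38.6% of all genes tested fell and 28.8% rose, and the members' median log2(Fold Change) was -2.19 against -0.21 for all genes. The falls were deepest for the capping enzyme MEPCE, the inhibitors HEXIM1 and HEXIM2 and the cyclin CCNT1. Those that passed were shallowest for the super elongation complex parts AFF4 and ELL2. LARP7 did not pass. At 10000 nM 8 of 9 fell again, with ELL2 in place of LARP7 as the one that did not pass, where 39.7% of all genes fell and 32.2% rose. At 100 nM the members divided: HEXIM1 rose, MEPCE and LARP7 fell, and 6 did not pass, where 24.5% of all genes rose and 32.3% fell. This count of 3 was 6 with library sizes alone or with each library's GC slope as a covariate, and 9, all lower, scaled to mitochondrial mRNAs. It was 0 where every well needed at least 10 counts, which left HEXIM1 alone to test.

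The kinase CDK9 had a level of 53.1 to 71.8 normalized CPM in the 18 DMSO wells, with a median of 57.9. With triptolide at 1000 nM the 3 wells had 11.1, 17.1 and 13.4, and at 10000 nM 14, 13.3 and 14.4, all below every DMSO well. CDK9 fell by 2.09 (SE 0.12, edgeR padj = 2.05e-13) and by 2.12 (SE 0.10, padj = 1.89e-15) on the log2 scale at these doses, so the last 10-fold step in dose added little. At 100 nM the wells had 46.9, 84.3 and 46.0, the middle value resting on 7 counts in the library of 70767. The log2(Fold Change) of -0.26 (padj = 0.0658) did not pass, and it was -0.31 (padj = 0.00864) without the libraries under 10 mil.

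The cyclin T transcripts fell further. CCNT1, whose protein is the main cyclin partner of CDK9, ranged from 15.8 to 56.6 normalized CPM in DMSO wells with a median of 31.8. It was at 53.0, 0 and 42.4 with 100 nM triptolide, at 5.28, 2.21 and 4.39 with 1000 nM and at 1.19, 1.31 and 1.11 with 10000 nM. The 0 is from the library of 70767 counts, where a count of 0 allows up to 42.4 CPM before TMM scaling, counting error only. Its fold change was 8.43-fold lower at 1000 nM (log2 -3.08, SE 0.35, edgeR padj = 2.21e-08) and 28.6-fold lower at 10000 nM (log2 -4.84, SE 0.37, padj = 1.49e-11). CCNT2, the second cyclin T, had 12.5 to 31.4 normalized CPM in DMSO wells (median 18.4) and 3.22, 2.79 and 6.14 with 1000 nM triptolide. It stayed at that level at 10000 nM, with 4.23, 3.52 and 3.17, and was 4.56-fold and 5.48-fold lower at these doses (edgeR padj = 6.34e-08 and 1.16e-09). Neither cyclin passed at 100 nM, where the deep wells of CCNT2 had 23.7 and 25.9.

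HEXIM1, the inhibitor of P-TEFb, fell at the higher doses, and its 100 nM value turned on the scaling. DMSO wells held 93.0 to 131 normalized CPM with a median of 109. With 100 nM triptolide the 3 wells had 173, 132 and 158, and the 2 deep wells lay above every DMSO well. HEXIM1 rose 1.5-fold there (log2 0.59, SE 0.11, edgeR padj = 6.26e-05), but its TPM of 47.5 to 48.1 lay within the 40.8 to 54.4 TPM of the DMSO wells. The rise did not pass in the fit with a replicate block, which kept only DMSO replicates 1, 2 and 3. The direction turned when libraries were scaled to the mitochondrially encoded mRNAs (log2 -1.04) and when every well needed at least 10 counts (log2 -0.098). Those mRNAs made up 0.518 to 1.15% of counts in triptolide wells and 0.138 to 0.367% in DMSO wells, and the part of this share in the results was not tested. At 1000 nM HEXIM1 dropped to 15.8, 10.3 and 12.7, and at 10000 nM to 9.48, 8.20 and 10.2, which is 8.44-fold and 12.0-fold lower than DMSO (edgeR padj = 2.72e-15 and 2.77e-17). HEXIM2, its less abundant relative, ranged from 3.88 to 21.0 in DMSO wells (median 4.91), the highest being DMSO replicate 10 with 460014 counts. HEXIM2 had 0.386, 0 and 0.388 normalized CPM with 1000 nM triptolide, on 3, 0 and 16 counts, where the 0 allows up to 0.280 CPM before TMM scaling. The fold change was 16.8-fold lower at 1000 nM and 9.74-fold lower at 10000 nM (edgeR padj = 3.01e-08 and 1.04e-08), and it was 0.04 on the log2 scale at 100 nM (padj = 0.927).

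MEPCE and LARP7, both constant parts of the 7SK particle, both fell with 100 nM triptolide and parted at 1000 and 10000 nM. MEPCE had 92.4 to 165 normalized CPM in DMSO wells, with a median of 122. It was at 51.7, 24.1 and 56.2 with 100 nM, at 4.89, 7.44 and 5.99 with 1000 nM and at 7.39, 6.17 and 7.79 with 10000 nM, below every DMSO well at all doses. MEPCE fell 2.32-fold, 20.2-fold and 17.7-fold at the rising doses (edgeR padj = 6.98e-07, 5.14e-16 and 1.31e-16). LARP7 had 14.8 to 33.5 in DMSO wells, with a median of 22.3. With 100 nM triptolide LARP7 had 6.78, 24.1 and 8.59, the 24.1 resting on 2 counts, and it fell 2.80-fold (edgeR padj = 6.31e-05). In normalized CPM LARP7 was near its DMSO range at 1000 nM, with 14, 16.3 and 23.1 (log2 -0.32, edgeR padj = 0.177). At 10000 nM it had 18.1, 15.3 and 15.5 (log2 -0.49, edgeR padj = 0.0273). Its TPM was lower against DMSO wells at 12.45 to 30.46. It had 12.36, 17.12 and 11.64 TPM with 1000 nM and 9.02, 7.27 and 9.01 with 10000 nM. The MEPCE to LARP7 ratio of TPM, which no scaling between libraries changes, was 2.08 to 6.28 in DMSO wells. It was 5.58 and 6.27 in the deep wells with 100 nM triptolide and 0.174, 0.195 and 0.200 with 1000 nM triptolide.

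AFF4, the scaffold, had 126 to 241 normalized CPM in DMSO wells with a median of 163. It was at 161, 60.2 and 142 with 100 nM triptolide, 93.8, 75.7 and 121 with 1000 nM and 105, 101 and 94.2 with 10000 nM. At the 2 higher doses every well lay below every DMSO well, and AFF4 fell 1.76-fold and 1.74-fold (edgeR padj = 3.44e-05 and 1.15e-05). ELL2, which speeds the polymerase along the gene, had 17.1 to 34.4 in DMSO wells (median 25.8) and 12.7, 12.9 and 23.6 with 1000 nM triptolide. ELL2 fell 1.5-fold there (edgeR padj = 0.0158), a call lost without replicate 1 (log2 -0.44), without replicate 2 (log2 -0.45) or without the libraries under 10 mil (log2 -0.44). At 10000 nM it had 20.9, 21.7 and 15.2 (log2 -0.40, edgeR padj = 0.0531), so its wells overlapped the DMSO wells in normalized CPM. In TPM they did not, with 2.77 to 4.29 against at least 4.69 in DMSO wells. AFF4 had 11.7 to 17.8 TPM with 1000 nM and 15.3 to 15.5 with 10000 nM, against 30.7 to 54.0 in DMSO wells.

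**Figure D2:**
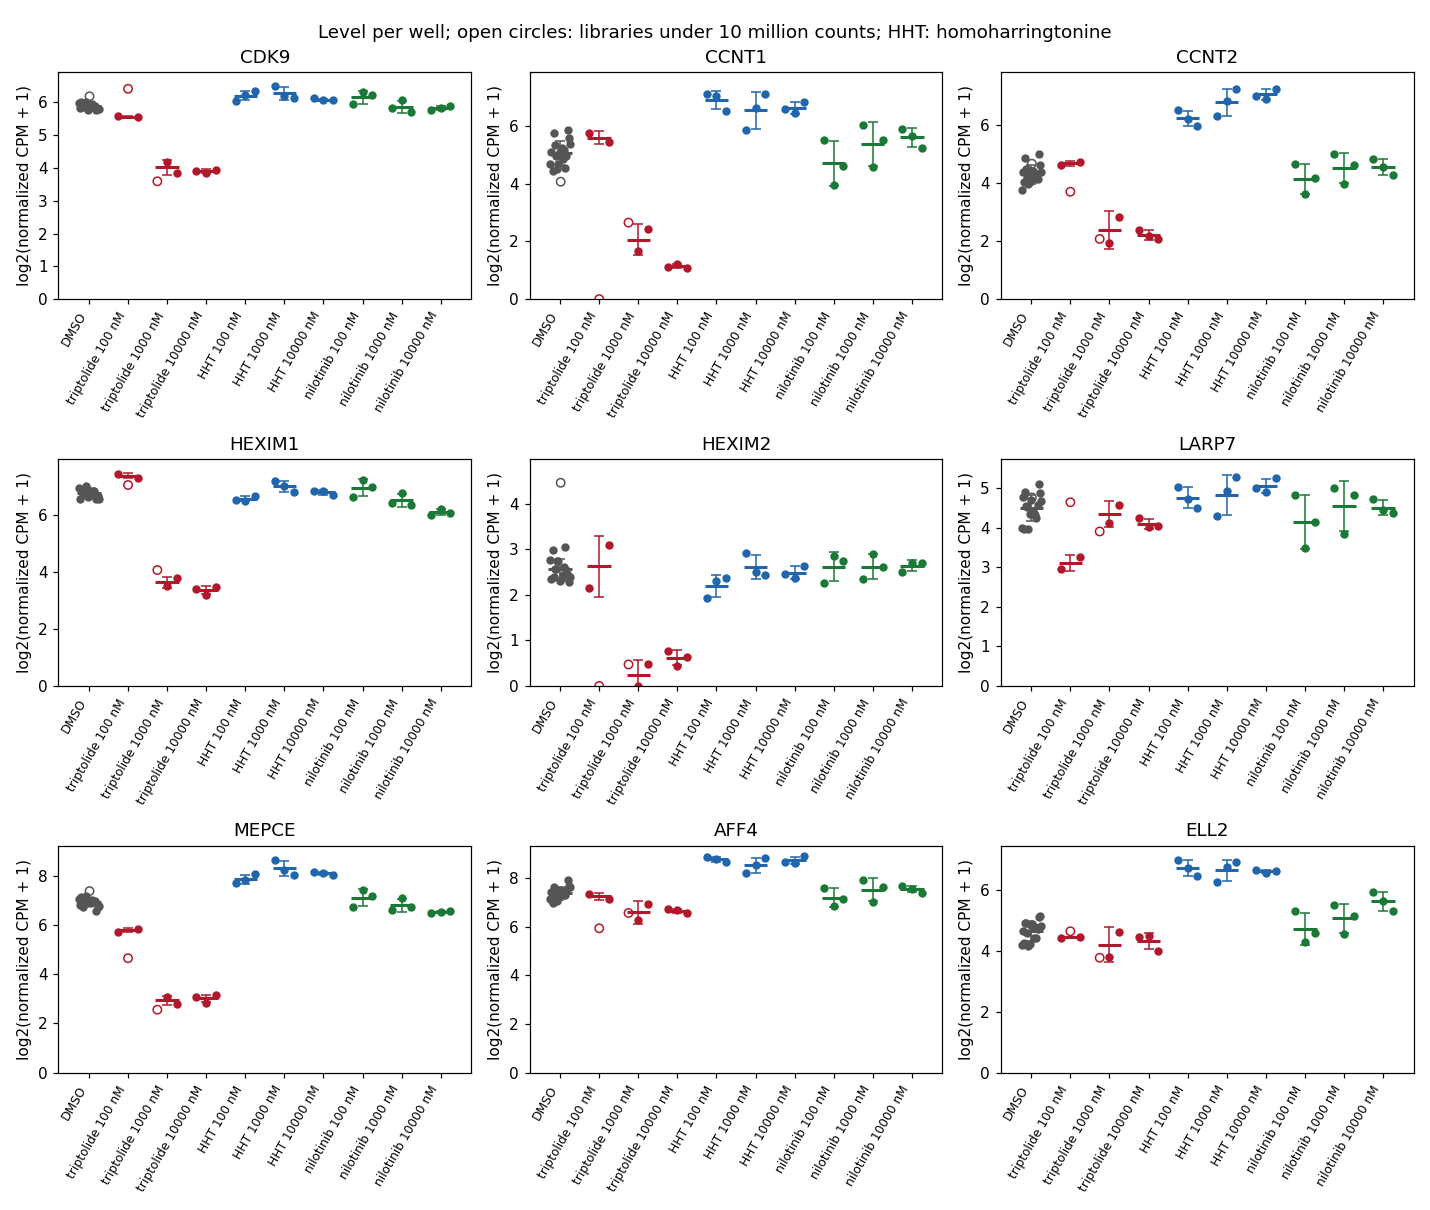
Level of each transcript per well (log2 of normalized CPM + 1) in DMSO, 3 doses of triptolide, 3 of homoharringtonine (HHT) and 3 of nilotinib. Points are wells, open circles are libraries under 10 mil counts, and lines with bars are the mean ± SD of the other wells; with 1000 nM triptolide the MEPCE wells sit at 4.89 to 7.44 normalized CPM against a DMSO median of 122, and with homoharringtonine all ELL2 wells lie above the DMSO wells.

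Homoharringtonine moved the group the other way. At 100 nM 6 of the 9 members rose and none fell, where 31.1% of all genes rose and 32.3% fell. At 1000 nM 7 rose and none fell, where 35.0% of all genes rose and 33.4% fell. At 10000 nM 6 rose and none fell, where 36.7% rose and 37.2% fell. The same 5 rose at each dose with at least 1.91-fold change: both cyclins T, MEPCE, AFF4 and ELL2. The members' median log2(Fold Change) was 0.93, 1.14 and 1.13 at the rising doses, against -0.03, -0.01 and -0.05 for all genes. In these edgeR fits neither HEXIM2 at any dose nor HEXIM1 at 100 and 10000 nM passed.

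CCNT2 rose the most at the 2 higher doses. It had 90.1, 74.0 and 61.9 normalized CPM with 100 nM homoharringtonine, 78.5, 113 and 149.9 with 1000 nM and 128, 120.1 and 153 with 10000 nM, against at most 31.4 in DMSO wells. CCNT2 rose 3.92-fold, 5.85-fold and 6.76-fold (edgeR padj = 1.55e-10, 2.27e-12 and 7.88e-14). CCNT1 had 137, 132 and 91.6 with 100 nM, 57.4, 97.5 and 138 with 1000 nM, and 95.9, 85.3 and 113 with 10000 nM. CCNT1 rose 3.61-fold, 2.90-fold and 2.87-fold (edgeR padj = 3.59e-08, 2.91e-06 and 8.71e-07). The CCNT2 to CCNT1 ratio of TPM had a median of 0.702 in DMSO wells and was 1.92, 1.93 and 2.12 in the 3 wells with 10000 nM homoharringtonine.

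CDK9 itself moved less than the cyclins T. It had 65.6, 73.1 and 79.8 normalized CPM with 100 nM homoharringtonine, 88.7, 72.4 and 69.2 with 1000 nM and 68.5, 65.7 and 66.9 with 10000 nM. These lay above the 17 deep DMSO wells, which reached 64.1, though not all above DMSO replicate 10 at 71.8. CDK9 rose 1.25-fold at 100 nM (edgeR padj = 0.00250) and 1.31-fold at 1000 nM (padj = 0.000733). At 10000 nM its log2(Fold Change) was 0.16 (edgeR padj = 0.0628). In TPM CDK9 had 52.9 to 64.7 with 100 nM, 64.7 to 68.8 with 1000 nM and 64.5 to 69.6 with 10000 nM. All of these lay above the DMSO wells, which reached 52.2 TPM. TPM divides by the transcript length from RSEM, which for CDK9 was 1608 to 1769 bases with 10000 nM against at least 1843 in DMSO wells.

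ELL2 and AFF4 rose at every dose. ELL2 had 126, 105 and 86.7 normalized CPM with 100 nM homoharringtonine, 76.0, 107 and 121 with 1000 nM and 99.8, 93.8 and 97.7 with 10000 nM, against at most 34.4 in DMSO wells. Its rises were 4.33-fold, 4.10-fold and 3.85-fold (edgeR padj = 5.22e-12, 2.04e-11 and 2.71e-11). AFF4 had 465, 441 and 398, then 294, 369 and 456, then 404, 393 and 473, and the DMSO wells reached 241. AFF4 rose 2.60-fold, 2.20-fold and 2.45-fold (edgeR padj = 1.80e-10, 2.47e-08 and 9.38e-10).

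Within the 7SK particle, MEPCE rose and the HEXIM transcripts moved little in normalized CPM. MEPCE had 207, 223 and 264 normalized CPM with 100 nM homoharringtonine, 392, 298 and 260.2 with 1000 nM and 284, 277 and 261 with 10000 nM, above every DMSO well. It rose 1.91-fold, 2.59-fold and 2.20-fold (edgeR padj = 1.45e-07, 3.76e-10 and 7.83e-10). HEXIM1 had 91.1, 90.3 and 101, then 148, 129.6 and 112, then 115, 114 and 103, overlapping the DMSO wells at each dose. With 100 nM, 2 of its wells lay below the lowest DMSO well, 93.0. In TPM all HEXIM1 wells with 100 nM, at 33.8 to 35.1, lay below the DMSO wells, which had at least 40.8. At 1000 and 10000 nM the HEXIM1 wells overlapped the DMSO wells in TPM. Its log2(Fold Change) was -0.19 (95% interval -0.40 to 0.02, padj = 0.106) at 100 nM, 0.26 (0.04 to 0.47, padj = 0.0317) at 1000 nM and -0.00 (-0.18 to 0.18, padj = 0.993) at 10000 nM in edgeR, and the call at 1000 nM was lost without replicate 1 (log2 0.14) or replicate 2 (log2 0.25). HEXIM2 had 2.79 to 6.55 over the 9 wells. LARP7 had 31.1, 29.1 and 37.1 with 10000 nM and passed there alone (log2 0.51, edgeR padj = 0.0155), a call lost without replicate 3 (log2 0.41).

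The GC slope of a library, the change of log2 level per 10 percentage points of a gene's GC content relative to the mean of the deep DMSO wells, moved with several members. Over these 17 DMSO wells Pearson's r was taken between log2(TPM + 1) and the GC slope. It was -0.84 for CCNT1, -0.83 for LARP7, -0.78 for ELL2, -0.76 for CCNT2 and -0.32 for AFF4. It was 0.95 for MEPCE, 0.68 for HEXIM1, 0.49 for HEXIM2 and -0.11 for CDK9. Slope and level come from the same libraries, so these are descriptions. Ratios of TPM between members can move with the slope too, which was not tested. The slope ran from -0.43 to 0.30 in DMSO wells and from -0.62 to -0.47 with 10000 nM homoharringtonine, outside the DMSO range. With the slope as a covariate, chosen after the data were seen, the log2(Fold Change) at that dose was 0.57 for CCNT1, 2.06 for CCNT2, 1.27 for ELL2, 0.77 for AFF4 and 1.53 for MEPCE, all of which still passed in edgeR. LARP7 was at -0.19 and no longer passed, while HEXIM1 was at 0.29 and passed.

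**Figure D3:**
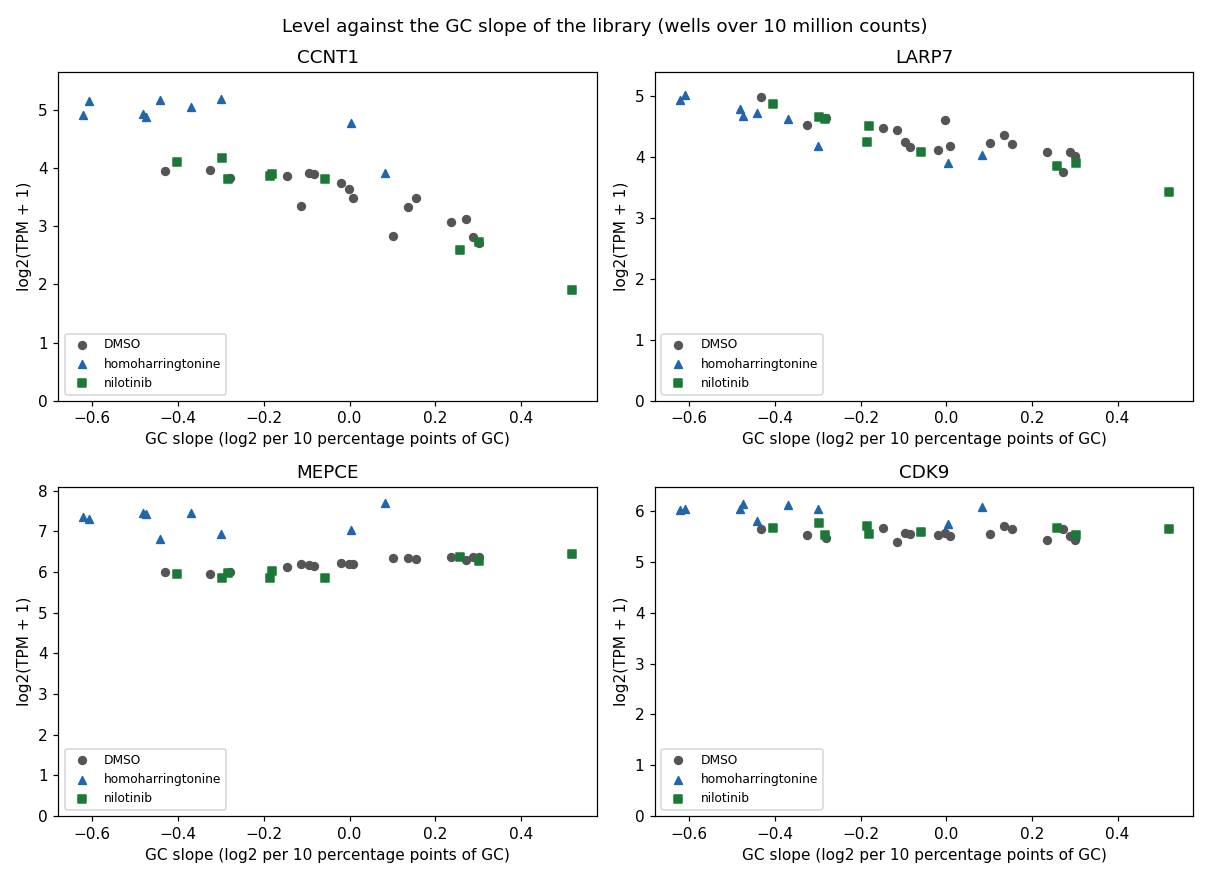
Level (log2 of TPM + 1) of CCNT1, LARP7, MEPCE and CDK9 against the GC slope of the library (log2 per 10 percentage points of GC) in wells over 10 mil counts of DMSO, homoharringtonine and nilotinib. In DMSO wells CCNT1 and LARP7 are lower and MEPCE is higher at a higher slope (r = -0.84, -0.83 and 0.95), and for CDK9 r is -0.11. Homoharringtonine wells with a slope inside the DMSO range lie above the DMSO wells of like slope for CCNT1 and MEPCE. All wells with 10000 nM, replicate 1 with 100 nM and replicate 3 with 1000 nM have lower slopes than any DMSO well shown.

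Set against each other at the same dose, without DMSO wells, triptolide was below homoharringtonine for most members. At 100 nM 7 members were lower with triptolide and 1 was higher, where 35.8% of all genes were lower and 29.7% higher. The higher one was HEXIM1, 1.81-fold (log2 0.86, SE 0.17, edgeR padj = 0.000248), which turned to -0.76 scaled to mitochondrial mRNAs and was 0.098, no longer past the test, where every well needed at least 10 counts. At 1000 nM 8 members were lower, where 38.9% of all genes were lower and 27.9% higher, and LARP7 did not pass (log2 -0.69, padj = 0.0902). At 10000 nM all 9 were lower, where 47.0% of all genes were lower and 41.4% higher, from 1.90-fold for LARP7 (edgeR padj = 1.47e-05) to 77.5-fold for CCNT1 (padj = 3.23e-11). With the GC slope as a covariate 7 passed there: LARP7 turned to 0.066 and HEXIM2 was at -2.11 (edgeR padj = 0.101). Without it, MEPCE, CCNT2 and CCNT1 were 36.7-fold, 35.0-fold and 77.5-fold lower there, and CDK9 4.58-fold.

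The dose trend over 100 to 10000 nM was tested among treated wells alone. With triptolide 6 members fell with dose, where 17.8% of all genes fell and 6.93% rose. Their slopes, in log2 per 10-fold dose, were -2.65 for CCNT1, -2.11 for HEXIM1, -1.69 for HEXIM2, -1.45 for MEPCE, -1.39 for CCNT2 and -0.97 for CDK9 (edgeR padj from 2.34e-05 to 0.00988). These are slopes of straight lines, and not every member fell evenly with dose. Mean normalized CPM of HEXIM2 and MEPCE was no lower at 10000 than at 1000 nM, and that of CDK9 was 13.9 at both. AFF4, ELL2 and LARP7 did not pass. With homoharringtonine 1 member passed, where 21.1% of all genes rose and 22.9% fell with dose: CCNT2 at 0.38 per 10-fold dose (SE 0.12, edgeR padj = 0.0204), a call lost without replicate 2 or replicate 3 (0.41 and 0.27). With the GC slope as a covariate 6 members passed: CCNT2 (0.21), MEPCE (0.22) and HEXIM2 (0.28) upward and CCNT1 (-0.42), ELL2 (-0.23) and AFF4 (-0.18) downward. The difference between the trends of the compounds passed for the same 6 members as the triptolide trend, lower with triptolide in each case, where 21.4% of all genes were lower. HEXIM2 missed the threshold without replicate 3 in its triptolide trend (-1.28) and in the difference (-1.50).

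**Figure D4:**
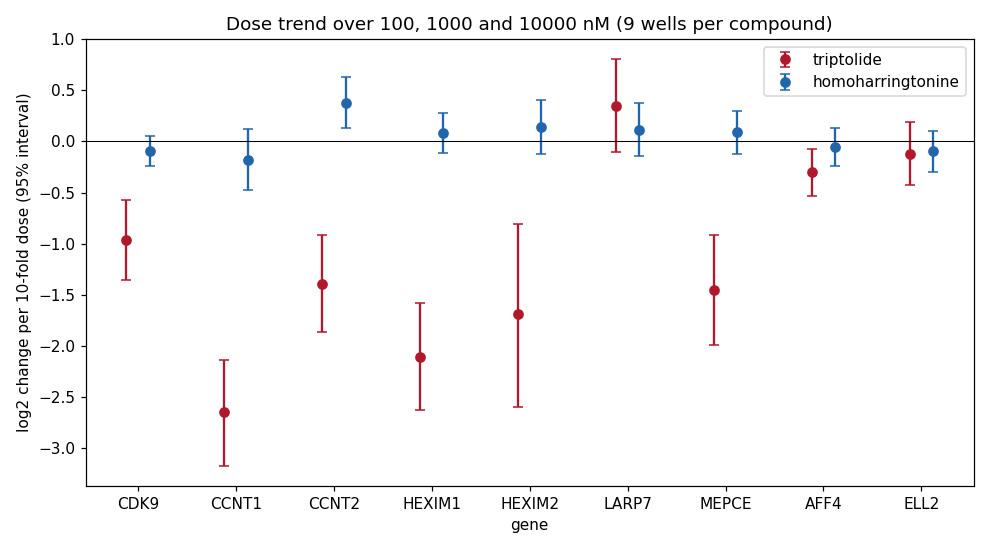
Log2 change per 10-fold dose of each transcript over 100, 1000 and 10000 nM, with 95% interval, for triptolide and homoharringtonine (9 wells each, edgeR). The triptolide slopes of CCNT1 (-2.65) and HEXIM1 (-2.11) lie far below 0, while the homoharringtonine slopes lie between -0.18 and 0.38.

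Of the other 4 compounds, nilotinib at 10000 nM had 3 members past the edgeR test. ELL2 rose, and HEXIM1 and MEPCE fell, where 7.97% of all genes rose and 6.39% fell. ELL2 had 59.8, 49.5 and 38.9 normalized CPM, above every DMSO well, a 2.0-fold rise (log2 1.0, SE 0.17, padj = 0.000149). HEXIM1 had 63.5, 73.6 and 66.9, below every DMSO well and 1.59-fold lower (log2 -0.67, SE 0.10, padj = 2.17e-05). MEPCE had 87.3, 91.5 and 94.6, of which 2 were below the lowest DMSO well, 92.4, and was 1.34-fold lower (padj = 0.0199), a call lost without replicate 1 (log2 -0.38) or replicate 2 (log2 -0.43). The GC slopes of these wells, -0.30 to -0.06, lay within the DMSO range, and with the slope as a covariate ELL2 was at 0.77, HEXIM1 at -0.56 and MEPCE at -0.27, all past the threshold. In the other 11 comparisons none of 99 member tests passed in edgeR, where 2.74% of all genes tested did, and 3 passed in DESeq2: CDK9 with pyrazolanthrone and with nilotinib at 100 nM and ELL2 with pyrazolanthrone at 10000 nM. Over all 12 comparisons the 3 passing tests of 108 became 9 with the GC slope as a covariate, 8 scaled to mitochondrial mRNAs, 6 without replicate 1 and 5 without the libraries under 10 mil. Those outside 10000 nM nilotinib were of CDK9 and ELL2 with the covariate, ELL2 with mitochondrial scaling, CDK9, MEPCE and HEXIM1 without replicate 1, and CDK9 without the shallow libraries. Among the 99 edgeR tests of the 11 comparisons without 10000 nM nilotinib, the smallest padj was 0.0563 and 11 had an unadjusted p under 0.05. Their log2 values lay between -0.50 and 0.54. Over the 36 wells of the 4 compounds CDK9 ranged from 51.2 to 83.5 normalized CPM, HEXIM1 from 63.5 to 149 and AFF4 from 112 to 241.

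The HEXIM1 to CDK9 ratio of TPM compares inhibitor and kinase within a library and depends on no scaling between libraries. It is not free of the GC slope, with which HEXIM1 had r = 0.68 and CDK9 -0.11 in deep DMSO wells. The ratio ranged from 0.824 to 1.23 in DMSO wells with a median of 0.983. It was 2.25 and 2.28 in the deep wells with 100 nM triptolide, and 0.797 in the library of 70767 counts. In those deep wells HEXIM1 was within its DMSO range of TPM, and CDK9 had 21.1 and 21.4 TPM against at least 41.2 in DMSO wells. In normalized CPM CDK9 was nearer its DMSO wells, at 46.9 and 46.0 against at least 53.1. The edgeR test of CDK9 at this dose did not pass with all wells and passed without the libraries under 10 mil. TPM divides by the transcript length from RSEM, for CDK9 2264 and 2440 bases there against a mean of 2023 in deep DMSO wells. At 1000 nM the ratio was 0.955 in the library of 9628355 counts and 0.406 and 0.525 in the deep wells, and at 10000 nM 0.308, 0.324 and 0.453. With homoharringtonine it was between 0.524 and 0.663 at 100 nM, 0.732 and 0.836 at 1000 nM, and 0.690 and 0.774 at 10000 nM. With 10000 nM nilotinib the wells had 0.544, 0.637 and 0.598, all below the DMSO wells. The sum of both HEXIM transcripts over the sum of both cyclins T was 1.94 to 5.19 in DMSO wells and 0.590 to 0.694 with 10000 nM homoharringtonine. The GC slopes of those homoharringtonine wells, -0.62 to -0.47, lay outside the DMSO range, and their part in this ratio was not tested.

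**Figure D5:**
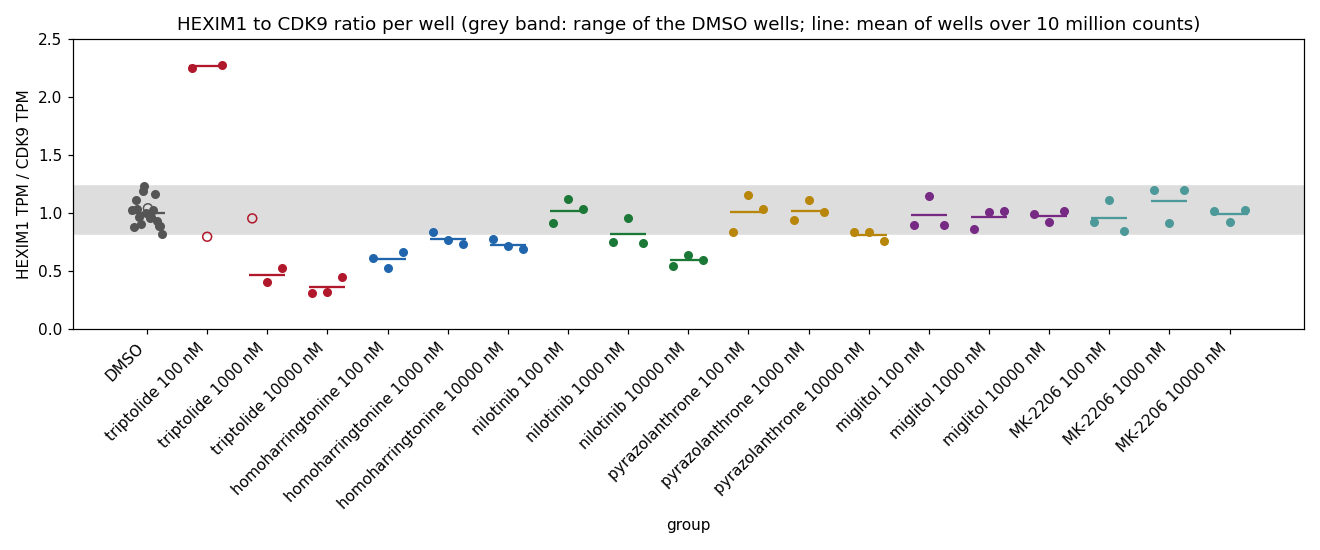
Ratio of HEXIM1 TPM to CDK9 TPM per well in all 19 groups; filled points are wells over 10 mil counts, open circles shallower ones, lines the mean of filled points, and the grey band the range of the DMSO wells, 0.824 to 1.23. The 2 deep wells with 100 nM triptolide sit at 2.25 and 2.28, and the wells with 10000 nM nilotinib lie below the band.

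Isoform use was followed through the transcript length that RSEM weights by isoform, as a description. MEPCE averaged 2557 bases ± 36.3 (SD, n = 17) in deep DMSO wells and was shorter than all of them in the 2 deep wells with 100 nM triptolide (2351 and 2377) and with 1000 nM (2260 and 2454). ELL2 reached 6046 bases in both deep wells with 100 nM triptolide, above the DMSO maximum of 5640. CDK9 was shorter in all 3 wells with 10000 nM homoharringtonine, 1608 to 1769 bases against at least 1843. Of 10356 genes, 13.2%, 12.4% and 13.1% lay outside the DMSO range in every deep well of these 3 groups, so such shifts were common.

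Other elongation genes were read from fixed lists, where 38.6% of all genes fell and 28.8% rose with 1000 nM triptolide, and 35.0% rose and 33.4% fell with 1000 nM homoharringtonine. Of 8 further parts of the super elongation complex, 6 fell and none rose with 1000 nM triptolide (median log2 -1.59), and 5 rose and 2 fell with 1000 nM homoharringtonine (median 0.51). ELL, a paralog of ELL2, was at -2.92 with triptolide and 1.87 with homoharringtonine, and EAF1, which binds ELL proteins, at -2.06 and 2.22. At 100 nM triptolide 1 of these 8 rose, ELL (log2 1.08, edgeR padj = 1.07e-07), and 4 fell (median log2 -0.52). At that dose 24.5% of all genes rose and 32.3% fell, and the median of all genes was -0.16. Of 6 other transcription kinases and cyclins, 3 fell with 1000 nM triptolide, and 4 rose with 1000 nM homoharringtonine. CDK7, the TFIIH kinase, was at -3.92 and 2.46, and CDK12, a kinase of elongating polymerase, at -2.83 with triptolide. Of 7 genes of the PAF1 complex and SPT6, 5 fell with 1000 nM triptolide, LEO1 the furthest at -5.41, and 5 rose with 1000 nM homoharringtonine, CDC73 at 1.60. The 6 pausing factor genes of NELF and DSIF divided with triptolide: 3 rose and 1 fell at 1000 nM, with NELFE at 1.01 and NELFA at -2.79. Of 9 genes for proteins that bind or free 7SK RNA or P-TEFb, 5 rose and 1 fell with 1000 nM triptolide, with HNRNPA2B1 at 1.12, and 3 rose and 2 fell with 1000 nM homoharringtonine, with HNRNPA1 at -1.43. The median of all genes was -0.21 with 1000 nM triptolide and -0.01 with 1000 nM homoharringtonine.

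The patterns of the members over the 19 group means of log2(CPM + 1) are given as a description, since all groups were normalized together. CDK9 and HEXIM1 had r = 0.97, HEXIM1 and HEXIM2 0.93, AFF4 and ELL2 0.96, and AFF4 and CCNT2 0.95, while HEXIM1 and LARP7 had 0.23 and HEXIM1 and ELL2 0.30. Among 12657 protein-coding genes, MAML1 (r = 0.988) and TRIM26 (0.987) were among the 3 closest to HEXIM1. The closest to CDK9 were TICAM1, MIDN and ZNF48, at r from 0.993 to 0.995. CCNT1 was closest to YTHDF2, UTP23 and RLIM (r from 0.986 to 0.987), CCNT2 to ZNF525, BRAP and ZNF597 (r from 0.995 to 0.996), and MEPCE to GPATCH3, TOE1 and ZNF503 (r from 0.993 to 0.996). For AFF4 the closest were ZKSCAN7, ZNF841 and KIAA0753 (r from 0.982 to 0.989), for ELL2 CYP7B1, ATP6V0A2 and NFKB1 (0.970 to 0.981), for HEXIM2 SUFU, CDC42EP4 and SOCS3 (0.976 to 0.978) and for LARP7 EMC2, MFN1 and HOOK3 (0.963 to 0.966).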

How the data were processed

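Population RNA-seq of 72 wells of U2OS cells was used, and conditions, doses and replicate numbers came from the sample labels. The labels give the middle dose as 1000 nM; the study's methods give another value, and the labels were used. The authors made poly(A) libraries with a stranded TruSeq kit, used a HiSeq sequencer, and estimated expression with RSEM; the methods name an Ensembl reference, while the RSEM version, aligner and annotation release are not given in the sources used here. The submitters' processing notes also list GRCh38, HTSeq and DESeq2 without a role.

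The deposited expected counts are RSEM estimates of reads per gene, not normalized. The deposited TPM values were scaled by the authors' RSEM run to transcript length and a fixed sum per library. Symbols and positions came from GENCODE release 44, which held 56104 of the 60371 identifiers.

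Rounding made the expected counts whole. They were then tested by edgeR 4.0.16, run in R 4.3.3 (TMM, filterByExpr with a minimum count of 10, glmQLFit, glmQLFTest, Benjamini-Hochberg over all genes tested, threshold 0.05), and with DESeq2 1.42.0 as an alternative. Fits held only the groups compared: each compound and dose against 18 DMSO wells, triptolide against homoharringtonine at each dose, and trends on log10 dose. Normalized CPM used TMM factors over all 72 wells. No 2 wells of a group agreed within sampling noise (lowest chi-square per degree of freedom 1.35 over 207 pairs). GC content came from GENCODE transcripts, and the GC slope used 11209 genes with a mean of at least 5 CPM in DMSO wells. The scripts were tested on simulated data.

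The 9 members and the gene lists were chosen with earlier results of these data known. All members are named in every comparison; of each list at most 3 genes were to be named, those with the largest log2 fold change past the test, and for each member the 3 protein-coding genes most like it by Pearson's r, with a mean of at least 1 CPM. Of these, 1 gene of a list, left out of its counts, and 1 of the genes most like HEXIM1 are not reported here.

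Depth ranged from 0.0708 to 68.3 mil counts. The reads carry no molecular identifiers and are not independent molecules; limits from counts cover counting error only. Alternatives were other scalings, filters, a replicate block, wells left out, 1 fit over all wells and the GC slope as a covariate. Against DMSO, the replicate block kept only DMSO replicates 1, 2 and 3.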

Additional observations from a re-analysis of the deposited data

Results flagged for a closer look

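The dose slope differed between triptolide and homoharringtonine for 6 of the 9 members, by edgeR's test of the interaction of compound and log10 dose over the 18 wells of both compounds. The slope with triptolide minus that with homoharringtonine, in log2 per 10-fold dose, was -2.48 for CCNT1 (SE 0.27, padj = 1.56e-06), -2.14 for HEXIM1 (SE 0.29, padj = 1.58e-05), -1.84 for HEXIM2 (SE 0.43, padj = 0.00196), -1.75 for CCNT2 (SE 0.26, padj = 3.54e-05), -1.51 for MEPCE (SE 0.29, padj = 0.000447) and -0.81 for CDK9 (SE 0.20, padj = 0.00357). The library of 70767 counts is 1 of the 9 triptolide wells. For AFF4, ELL2 and LARP7 the differences were -0.20 (95% interval -0.51 to 0.11), 0.03 (-0.33 to 0.38) and 0.30 (-0.19 to 0.79), which did not pass.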

How the results depend on the processing

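Over the alternatives, 1144 of 1247 refitted member values kept direction and side of the threshold, 37 lost the call, 56 gained it and 10 turned direction. The 100 nM triptolide count (3 of 9) became 6 with library sizes only, 9 scaled to mitochondrial mRNAs, 5 with the replicate block, 6 with the GC slope and 0 where every well needed at least 10 counts, when HEXIM1 alone was tested. That last filter also left 1 member in triptolide against homoharringtonine at 100 nM (0 passed, against 8), in the triptolide trend (1, against 6) and in the difference of trends (1, against 6). For the other 4 compounds the 3 passing tests of 108 became 6 with DESeq2, 8 scaled to mitochondrial mRNAs, 14 with the replicate block, 9 with the GC slope and 5 without the libraries under 10 mil. For the homoharringtonine trend the count of 1 became 6 with the GC slope.

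Without 1 replicate each the counts ranged from 0 to 1 for the homoharringtonine trend and from 3 to 6 for the other 4 compounds. Turned directions with mitochondrial scaling at 100 nM triptolide were CCNT1 (-1.19), CCNT2 (-1.29), HEXIM1 (-1.04) and HEXIM2 (-1.72) against DMSO, and HEXIM1 (-0.76) and HEXIM2 (-1.09) against homoharringtonine. HEXIM1 was at -0.098 with at least 10 counts in every well. With the GC slope at 10000 nM homoharringtonine, HEXIM1 was at 0.29, LARP7 at -0.19, and LARP7 in triptolide against homoharringtonine at 0.066. The cause was not tested. Scaling to library sizes put the median of all genes at -0.50, -0.67 and -0.70 at the rising triptolide doses, and scaling to mitochondrial mRNAs at -1.81, -2.68 and -2.92; all falls at 1000 and 10000 nM kept their direction under both.

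Replicate numbers were treated as names of wells, since in none of 27 pairs of groups was every correlation of same-numbered wells over 0.1. Each pair of groups had at most 3 such correlations, and their means ran from -0.47 to 0.47. This rule therefore cannot decide whether the numbers mark a shared batch. Fits with the replicate block against DMSO kept only DMSO replicates 1, 2 and 3 of the 18, so block and controls both changed. In such a fit HEXIM1 at 100 nM triptolide was at 0.28 and did not pass. Depth limits HEXIM2 most, with 0 to 18 counts per well with 1000 and 10000 nM triptolide. The fit over all 72 wells was not run for the trends, and no library under 10 mil entered the homoharringtonine trend or the 10000 nM comparison of the compounds.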
